A study of Mus musculus with 6 samples.

Results

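The genes described here are the receptors Notch1, Notch2 and Notch3, the DNA-binding partner Rbpj, and the target genes Hes1, Hey1, Heyl, Dtx1 and Nrarp, 9 genes of the 22099 in the deposited table. They were chosen by name, and all 9 were found, on 11 RefSeq transcript rows that were summed per gene symbol. RNA with a poly(A) tail was sequenced from 6 cultures of whole bone marrow of C57BL/6 mice, 14 days after a retrovirus carrying the BCR-ABL oncogene in its p185 form and a yellow fluorescent protein marker was added. The cells are labelled as transformed pro-B acute lymphoblastic leukaemia. They were wild type (wt), homozygous for a mutation of zinc finger 1 of Ikaros (Ikaros ZnF1-/-, here ZnF1 mutant) or homozygous for a mutation of zinc finger 4 (Ikaros ZnF4-/-, here ZnF4 mutant), with 2 biological replicates in each group. All groups carry the oncogene, so no group shows the untransformed state. The labels give no age of the animals and mention no sorting of transduced cells from the rest of the marrow.

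Notch receptors are surface proteins that are cut after a ligand on a neighbouring cell binds them. The freed inner part enters the nucleus, joins the DNA-binding protein RBPJ and its coactivator Mastermind, and switches on target genes such as Hes1, Heyl, Dtx1 and Nrarp. In lymphoid progenitors Notch1 signalling directs cells to the T lineage, while Notch2 is known for its role in marginal zone B cells of the spleen. Ikaros, a zinc finger protein encoded by Ikzf1, binds DNA with a GGGAA core that resembles the RBPJ site, and in developing T cells it is known to repress Notch target genes.

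The labelled cell type was checked on 9 pro-B markers, among them Pax5, Ebf1, Igll1 and Rag1. All had at least 1 RPKM (reads scaled to transcript length and to library size) in every library. This level does not tell cell types apart, since all 11 macrophage markers named below also reached it in every library. Not all pro-B markers were alike between the groups. Rag1 stood at 5.4 and 8.7 RPKM in wt, 29.2 and 35.9 in the ZnF1 mutant and 31.6 and 33.3 in the ZnF4 mutant. Of 12 T cell markers, 2 to 4 reached 1 RPKM in each library. The T cell receptor complex genes Cd3e and Cd3g, and Cd8a, Cd8b1, Bcl11b and Trat1, were listed at 0 in all 6 libraries, and Cd3d was at most 0.1 RPKM. Cd247, the zeta chain of that complex, was at 8.1 to 12.7 RPKM in every library, and the adaptor gene Lat was at 26.2 and 12.1 in wt against 1 to 4.2 in the mutants. The list summed to 38.5 and 25.4 RPKM in wt, 13.7 and 14.8 in the ZnF1 mutant and 17.3 and 16.3 in the ZnF4 mutant, with Cd4 at 1.7 and 2 in the ZnF1 mutant and at most 0.1 elsewhere. Transcripts of other marrow cells were present. The summed level of the 11 macrophage markers was 304.8 and 361.1 RPKM in wt, 877.6 and 995.7 in the ZnF1 mutant and 319.9 and 370 in the ZnF4 mutant. Granulocyte markers stood apart in wt replicate 1 and ZnF1 mutant replicate 2, with sums of 513.4 and 1581.7 RPKM over 9 genes against 9.8 to 59 in the other libraries. Mmp9 in this list varied otherwise, at 8.3 and 9.6 RPKM in wt, 37 and 40.6 in the ZnF1 mutant and 3.9 and 7.3 in the ZnF4 mutant. Library depth is unknown, since values rounded to 1 decimal do not show what a single read is worth, and 10582 to 11119 genes reached 1 RPKM in each library. In bulk RNA, fewer cells of a type and less RNA per cell cannot be told apart.

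In wt cells Notch1 was the most abundant of the 9 genes, at 25.2 ± 8.27 RPKM (SD, n = 2), followed by Hes1 at 9.75 ± 2.9 and Heyl at 6.55 ± 2.19. Nrarp at 3.55 ± 1.06, Notch2 at 3.45 ± 0.354 and Rbpj at 2.65 ± 0.495 came next. Notch3 stood at 0.25 RPKM, Dtx1 at 0.05, and Hey1 was listed at 0. Between neighbours in this order, the libraries of Hes1 and Heyl, of Nrarp and Notch2, and of Dtx1 and Hey1 overlapped, and the other neighbours did not. The order was different in the ZnF4 mutant, where Notch2 at 8.15 RPKM overlapped Hes1 at 9.05 and Heyl came after Rbpj and Nrarp, at 0.3 RPKM. In the ZnF1 mutant Notch2 was the third at 7 RPKM, below Hes1 and above Heyl with no overlap.

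**Figure D1:**
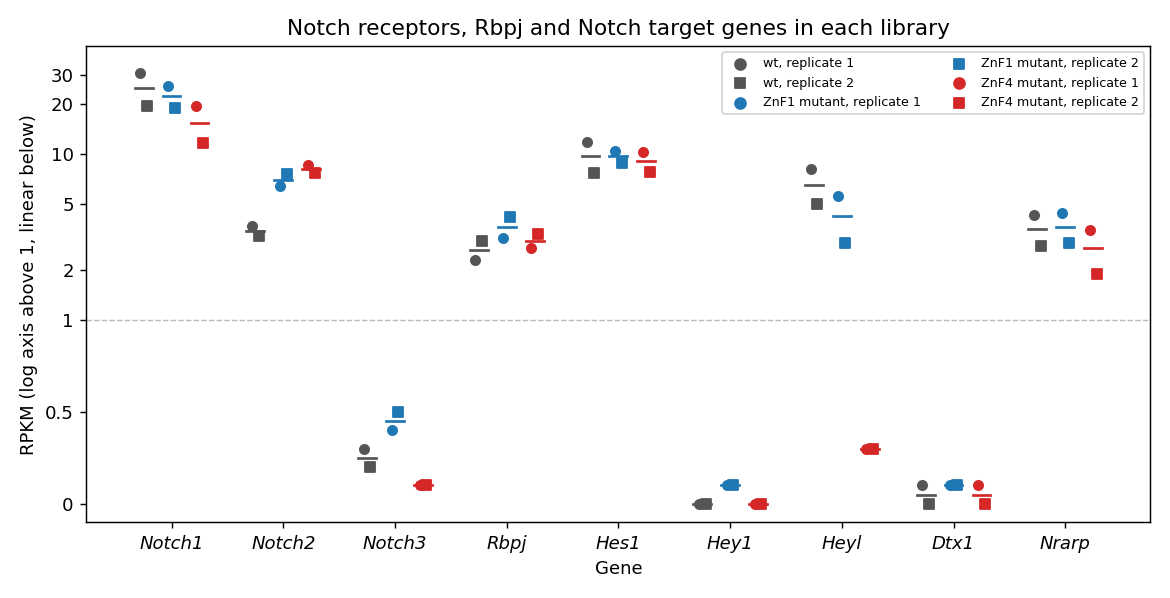
RPKM of the 9 genes in each of the 6 libraries, on an axis that is logarithmic above 1 RPKM and linear below. Circles are replicate 1, squares replicate 2, and short lines the group means. Notch2 lies at 3.2 to 3.7 RPKM in wt and at 6.4 to 8.6 in the mutants, and Heyl at 0.3 in both ZnF4 mutant libraries against 2.9 to 8.1 in the others.

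Genes that reached 1 RPKM in 2 or more libraries entered the test with limma, a linear model with a spread estimate shared across genes, on log2(RPKM + 1). Of the 9 genes, 6 passed this filter: Notch1, Notch2, Rbpj, Hes1, Heyl and Nrarp. Notch3, Hey1 and Dtx1 did not and are described by their values. All p-values below are two-sided and Benjamini-Hochberg adjusted over the 11345 genes tested, with a threshold of 0.05. In ZnF4 mutant against wt, 2 of the 6 genes passed, Notch2 higher and Heyl lower, beside 2.72% of all genes tested. In ZnF1 mutant against wt 0 of the 6 passed with limma, beside 0% of all genes (0 of 11345, with 1281 at an unadjusted p under 0.05). In ZnF4 against ZnF1 mutant 1 of the 6 passed, Heyl lower, beside 5.37% of all genes. Both comparisons against wt share the wt libraries, and the last shares a mutant group with each. By rank alone, both libraries of the first group lay above both of the second for 2 of the 6 genes in ZnF1 mutant against wt (beside 18.3% of all genes) and for 1 each in ZnF4 mutant against wt (beside 17.8%) and ZnF4 against ZnF1 mutant (beside 21.7%). They lay below for 0, 1 and 1 of the 6 genes (beside 12.7%, 13.8% and 21.8%).

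Libraries with the same replicate number resembled each other beyond their group. Notch1, Hes1 and Nrarp were higher in replicate 1 than in replicate 2 in each of the 3 groups, by 0.42 to 0.70, 0.22 to 0.56 and 0.47 to 0.63 on the log2 scale, while Rbpj was lower in replicate 1 (−0.34 to −0.22). A second fit took the replicate number as a block. It called 3 of the 6 genes in ZnF4 mutant against wt (beside 15.9% of all genes), 1 in ZnF1 mutant against wt (beside 13.2%, or 1502 genes) and 3 in ZnF4 against ZnF1 mutant (beside 35.1%). Each such call is given below with its gene. The labels do not say what a replicate number shares.

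**Figure D2:**
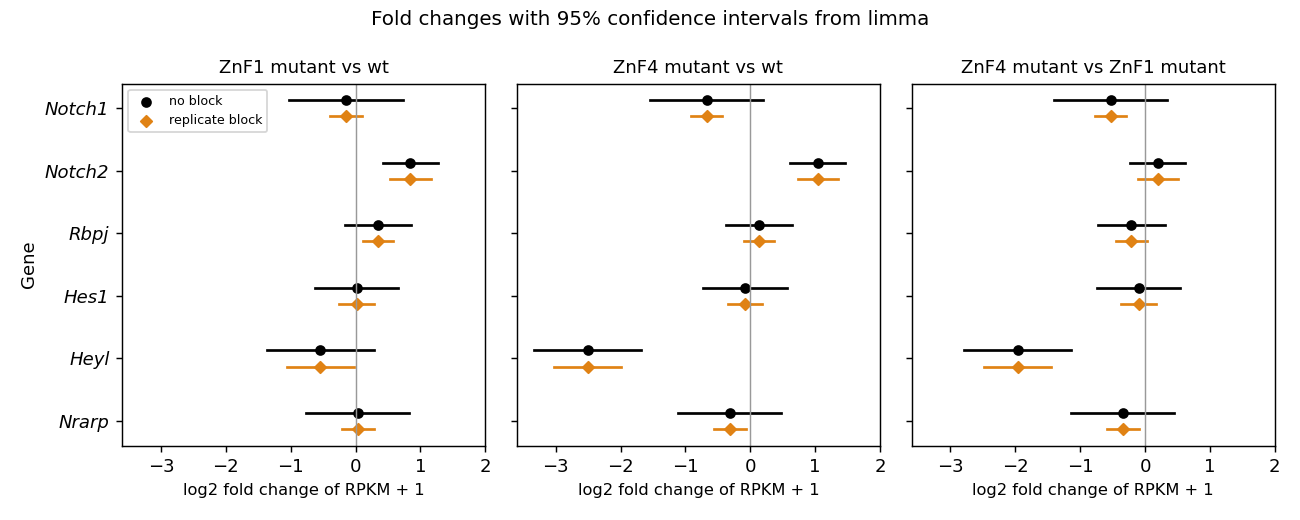
log2 fold changes of RPKM + 1 for the 6 tested genes in the 3 comparisons, with 95% confidence intervals from limma without (black circles) and with (orange diamonds) the replicate block. Intervals without the block lie apart from 0 for Notch2 in both mutants against wt and for Heyl in the ZnF4 mutant against each other group.

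Among the receptors, Notch2 was higher in both mutants than in wt. It was listed at 3.7 and 3.2 RPKM in wt replicates 1 and 2, at 6.4 and 7.6 in the ZnF1 mutant and at 8.6 and 7.7 in the ZnF4 mutant. Every mutant library was above every wt library, and the ZnF4 mutant libraries were both above the ZnF1 mutant libraries. Notch2 rose by 1.04 in the ZnF4 mutant against wt (log2, SE 0.17, 95% interval 0.62 to 1.46, limma adjusted p = 0.048, or 0.007 with the replicate block), a ratio of mean RPKM of 2.36. In the ZnF1 mutant the difference from wt was 0.84 (SE 0.17, interval 0.42 to 1.27, limma adjusted p = 0.12, or 0.018 with the block), a ratio of 2.03. Between the mutants the difference was 0.20 (interval −0.23 to 0.62, limma adjusted p = 0.65), within the spread between replicates.

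The Notch2 value in the ZnF4 mutant sat close to the threshold. Its call without the block ended under either other scaling of the libraries (limma adjusted p = 0.056 with median centring and 0.061 with quantile normalization). It ended as well in fits of the unscaled values that leave out any single library, where the log2 fold change stayed at 0.96 to 1.12. The call also ended with no filter on low values (limma adjusted p = 0.07), with a filter at 5 RPKM (0.066) and with the other mutant left out of the fit (0.1), each with a log2 fold change of 1.04.

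Notch2 is also expressed by macrophages and other marrow cells. The macrophage sums given above were 319.9 and 370 RPKM in the ZnF4 mutant and 304.8 and 361.1 in wt, and Notch2 was higher in the ZnF4 mutant. In the ZnF1 mutant both the macrophage sum and Notch2 were higher than in wt. The part of macrophage transcripts in the Notch2 values was not tested in either mutant. The 10 stromal markers summed to 46 and 42.9 RPKM in wt, 242.5 and 79.1 in the ZnF1 mutant and 37 and 23.2 in the ZnF4 mutant, with Lum at 0 in every library.

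**Figure D3:**
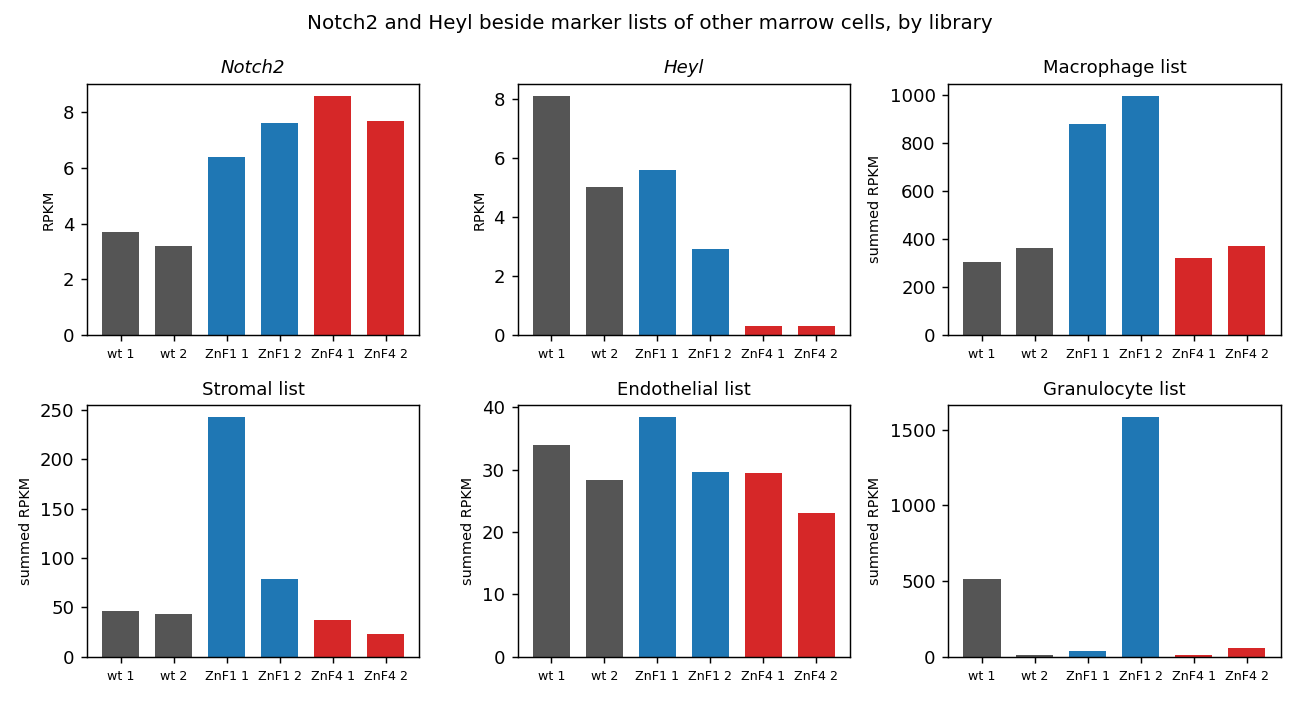
RPKM of Notch2 and Heyl, and summed RPKM of the macrophage, stromal, endothelial and granulocyte marker lists, in each library (bars start at 0; grey wt, blue ZnF1 mutant, red ZnF4 mutant; the number after each group is the replicate). The macrophage sum is 304.8 to 370 RPKM in wt and the ZnF4 mutant and 877.6 to 995.7 in the ZnF1 mutant. Notch2 is higher in both mutants than in wt, and the part of macrophage transcripts in it was not tested.

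Notch1, the receptor that drives T lineage commitment, stood at 31.1 and 19.4 RPKM in wt replicates 1 and 2, at 25.7 and 19 in the ZnF1 mutant and at 19.4 and 11.6 in the ZnF4 mutant. The groups overlapped, but within each replicate number the ZnF4 mutant library was the lowest. The difference in the ZnF4 mutant was −0.68 against wt (log2, SE 0.35, interval −1.55 to 0.20, limma adjusted p = 0.62) and −0.53 against the ZnF1 mutant (interval −1.40 to 0.35, limma adjusted p = 0.52). With the replicate block Notch1 fell in both comparisons, by the same log2 values with an SE of 0.094 (limma adjusted p = 0.011 and 0.014). In the ZnF1 mutant against wt the value was −0.15 (interval −1.02 to 0.73, limma adjusted p = 1, or 0.36 with the block).

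The makeup of receptor transcripts differed between the groups. Notch2 made up 10.5% and 14% of the summed RPKM of the 3 receptors in wt replicates 1 and 2, 19.7% and 28% in the ZnF1 mutant, and 30.6% and 39.7% in the ZnF4 mutant. The 3 groups did not overlap in this share, which was computed after the values were seen and was not tested. The summed receptor level itself overlapped, at 35.1 and 22.8 RPKM in wt, 32.5 and 27.1 in the ZnF1 mutant and 28.1 and 19.4 in the ZnF4 mutant. Notch3, a receptor of smooth muscle and of immature T cells, was low throughout, at 0.3 and 0.2 RPKM in wt, 0.4 and 0.5 in the ZnF1 mutant and 0.1 and 0.1 in the ZnF4 mutant. These values lie near the smallest step of the table, 0.1 RPKM.

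Because the paralogous receptors Notch1 and Notch2 differed in how they varied between the groups, their proximal promoters are shown for comparison, as the 250 bases before the RefSeq start site (GRCm38.p6, 5′ to 3′ along the gene). That of Notch2 is chr3:98013288-98013537 on the plus strand, and that of Notch1 is chr2:26503823-26504072 on the minus strand. Capitals mark matches to GGGAA on either strand, the core bound by Ikaros.
Notch2: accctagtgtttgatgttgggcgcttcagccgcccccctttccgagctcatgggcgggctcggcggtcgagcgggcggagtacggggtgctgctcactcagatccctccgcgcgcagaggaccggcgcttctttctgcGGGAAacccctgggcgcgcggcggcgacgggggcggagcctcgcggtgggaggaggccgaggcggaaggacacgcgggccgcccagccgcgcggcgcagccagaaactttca
Notch1: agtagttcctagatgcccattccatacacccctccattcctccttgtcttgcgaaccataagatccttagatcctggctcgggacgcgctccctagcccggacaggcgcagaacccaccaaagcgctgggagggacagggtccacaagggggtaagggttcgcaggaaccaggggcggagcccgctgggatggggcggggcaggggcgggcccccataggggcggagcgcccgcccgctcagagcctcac
The Notch2 window held 1 match, whose first base lies at −112 from the start site, and the Notch1 window held 0. A GGGAA match was present in 56.2% of all 32851 promoter windows of this length, and the longer core TGGGAA, which contains GGGAA and is shared with the RBPJ site, in 21.6%. TGGGAA had 0 matches in the windows of Notch1, Notch2, Notch3, Dtx1 and Nrarp. It had 2 and 1 in the windows of the 2 Rbpj start sites. These windows overlap, and the match in the second is also 1 of those in the first. A match is a description of the letters and not a binding site. The RefSeq promoter table held 6 of the 9 genes, and Hes1, Hey1 and Heyl were not analysed here.

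Rbpj, the DNA-binding protein on which all Notch receptors converge, was listed at 2.3 and 3 RPKM in wt replicates 1 and 2, 3.1 and 4.2 in the ZnF1 mutant and 2.7 and 3.3 in the ZnF4 mutant. The lower ZnF1 mutant library was 0.1 RPKM above the higher wt library, and the ZnF4 mutant libraries overlapped wt. The difference from wt was 0.35 in the ZnF1 mutant (log2, interval −0.17 to 0.86, limma adjusted p = 0.78, or 0.073 with the block) and 0.13 in the ZnF4 mutant (interval −0.38 to 0.65, limma adjusted p = 1). Of its 3 rows, 1 carried nearly all of this level. Mouse annotation names processed pseudogenes of Rbpj, and how the authors counted reads shared with them is unstated in the sources used here, so its level is uncertain.

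Among the target genes, Heyl had the largest difference from wt of the 6 tested genes, in the ZnF4 mutant. Heyl encodes a transcriptional repressor of the Hes and Hey family. It stood at 8.1 and 5 RPKM in wt replicates 1 and 2, at 5.6 and 2.9 in the ZnF1 mutant, and at 0.3 in both ZnF4 mutant libraries. Both ZnF4 mutant libraries were below every other library, and the ZnF1 mutant overlapped wt. Heyl fell by 2.51 in the ZnF4 mutant against wt (log2, SE 0.33, interval −3.33 to −1.68, limma adjusted p = 0.027, or 0.0025 with the block). It fell by 1.96 against the ZnF1 mutant (interval −2.79 to −1.14, limma adjusted p = 0.036, or 0.0033 with the block). The mean in wt was 21.8 times that in the ZnF4 mutant. This ratio is imprecise, since 0.3 RPKM lies near the smallest step of the values, 0.1 RPKM. The pseudocount of 1 makes the log2 change smaller than the ratio (−4.01 against wt with a pseudocount of 0.1, limma adjusted p = 0.016). In the ZnF1 mutant against wt the value was −0.54 (interval −1.37 to 0.28, limma adjusted p = 0.79, or 0.15 with the block).

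Leaving out single libraries kept the direction of Heyl in the ZnF4 mutant against wt, at −2.81 to −2.21, but the limma adjusted p was then 0.0479 to 0.228 and only the fit without ZnF1 mutant replicate 2 stayed under 0.05. Without wt replicate 1 and ZnF1 mutant replicate 2, the libraries rich in granulocyte transcripts, it was −2.21 (limma adjusted p = 0.26), and with no filter on low values −2.51 (0.057). Between the mutants, Heyl was at −2.34 to −1.58 without single libraries (limma adjusted p = 0.0478 to 0.211, under 0.05 only without wt replicate 1) and at −2.34 without that pair (0.199). That call also ended with no filter on low values (limma adjusted p = 0.058) and with a filter at 5 RPKM (0.051).

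Heyl is known from vessel walls as well. The 9 endothelial markers summed to 33.9 and 28.4 RPKM in wt, 38.4 and 29.6 in the ZnF1 mutant and 29.4 and 23.1 in the ZnF4 mutant, mostly from Pecam1 and Egfl7, with Tek at 0 in all libraries. The members of this list did not vary alike. Pecam1, which blood cells also express, stood at 18.6 and 18.3 RPKM in wt, 25.8 and 22.4 in the ZnF1 mutant and 9.9 and 9.4 in the ZnF4 mutant. Its log2 difference from wt in the ZnF4 mutant was −0.87 (limma adjusted p = 0.058, or 0.0036 with the block). Cdh5 was at 0 in both wt libraries, 0.1 in both ZnF1 mutant libraries and 2.1 and 1.3 RPKM in the ZnF4 mutant. Kdr was at 0.1 RPKM in both wt libraries, 1.5 and 1.6 in the ZnF1 mutant and 0.7 and 0.9 in the ZnF4 mutant. Flt1 was at 0.1 and 0 in wt, 0 and 0.2 in the ZnF1 mutant and 1.1 and 0.6 in the ZnF4 mutant. Egfl7 overlapped between the groups, and Emcn, Tie1 and Esam were at most 0.7 RPKM. The part of endothelial transcripts in the Heyl values was not tested.

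Hes1, the best known Notch target and also a repressor, showed no difference beyond the spread between replicates. It was listed at 11.8 and 7.7 RPKM in wt replicates 1 and 2, 10.5 and 8.9 in the ZnF1 mutant and 10.3 and 7.8 in the ZnF4 mutant, and all groups overlapped. The difference from wt was 0.02 in the ZnF1 mutant (log2, interval −0.63 to 0.66) and −0.08 in the ZnF4 mutant (interval −0.72 to 0.56), each with a limma adjusted p of 1. With the replicate block the intervals were −0.25 to 0.28 and −0.35 to 0.19. The sign of these small values changed with the scaling or the libraries used.

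Nrarp, which feeds back on Notch by promoting loss of the cut receptor, stood at 4.3 and 2.8 RPKM in wt, 4.4 and 2.9 in the ZnF1 mutant and 3.5 and 1.9 in the ZnF4 mutant. The groups overlapped, and within each replicate number the ZnF4 mutant library was the lowest, as for Notch1. The difference in the ZnF4 mutant was −0.31 against wt (log2, interval −1.11 to 0.48, limma adjusted p = 1, or 0.095 with the block) and −0.34 against the ZnF1 mutant (interval −1.14 to 0.45, limma adjusted p = 0.67). With the block Nrarp fell against the ZnF1 mutant (limma adjusted p = 0.045). Dtx1, a ubiquitin ligase that is a sensitive Notch target in lymphocytes, was at most 0.1 RPKM in every library. Hey1 was listed at 0.1 in both ZnF1 mutant libraries and at 0 in the other 4.

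The profiles of 3 of the genes ranged over at least 1 on the log2 scale, and for each the genes with the smallest root mean square difference of centred log2(RPKM + 1) over the 6 libraries were found among 10445 named genes. For Notch2 they included Arl4c and Zfp516, with differences of 0.0636 and 0.0681. Arl4c, a small GTPase, stood at 5.6 and 5.1 RPKM in wt, 9.9 and 12.1 in the ZnF1 mutant and 12.2 and 12.6 in the ZnF4 mutant. For Heyl they were Lax1, an adaptor of lymphocyte receptor signalling, the Wnt receptor gene Fzd6, and Dlx1as, with differences of 0.145 to 0.189. Fzd6 was listed at 5.8 and 5.5 RPKM in wt, 5.9 and 2.9 in the ZnF1 mutant and 0.4 and 0.3 in the ZnF4 mutant. For Notch1 they were Ssbp3, Fam117a and Ttc7, with differences of 0.049 to 0.058. This is a description over 6 libraries that share their groups and replicate numbers.

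Other genes of the pathway were taken from a list of 64, all found in the table, of which 48 were tested. Ligands were scarce. Dll1 and Dll3 were listed at 0 in all libraries, Dll4 at most at 0.9 RPKM, Jag1 at most at 0.5, Jag2 at most at 1.2 and the receptor gene Notch4 at most at 0.3, so none of these entered the test. Dlk1, a ligand-like inhibitor, was at 0 in the 4 wt and ZnF1 mutant libraries and at 1.6 and 0.4 RPKM in the ZnF4 mutant. The machinery that modifies and cuts receptors was present. The Fringe enzyme Lfng, which adds sugars that tune ligand choice, stood at 53.6 to 125.3 RPKM over the libraries, and the protease Adam10 at 43.2 to 69.8.

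In ZnF1 mutant against wt, 0 of the 48 genes passed with limma, while the blocked fit called 5 higher and 2 lower (14.6%, beside 13.2% of all genes). The 5 were Dtx4, a Deltex ubiquitin ligase (1.20 on the log2 scale, 3.95 ± 0.636 against 1.15 ± 0.212 RPKM), Il2ra (1.62), Tcf7 (1.03), the corepressor Ctbp2 (0.84) and the gamma-secretase subunit Ncstn (0.35). The lower genes were the Mastermind gene Maml3 (−0.40) and Hes5 (−0.53). Their limma adjusted p was 0.0052 to 0.043 with the block and at least 0.092 without it. The median log2 fold change of the 48 genes was 0.05, beside −0.01 over all genes tested.

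In ZnF4 mutant against wt, 1 of the 48 genes passed with limma, Il2ra lower, which is 2.08% beside 2.72% of all genes. The blocked fit called 6 higher and 4 lower (20.8%, beside 15.9%). They included Igf1r, a growth factor receptor that Notch1 induces in T cell leukaemia (1.03, at 10.4 ± 1.34 against 4.55 ± 0.636 RPKM, limma adjusted p = 0.061, or 0.0097 with the block), Numbl (0.51), Tcf7 (0.51), Dtx2 (0.47) and the ligand-activating ligase Mib1 (0.37). The complement receptor gene Cr2 was the other, at 1 and 1.1 RPKM in the ZnF4 mutant and 0.2 to 0.5 in the other libraries. It passed the filter on low values only through the group where it is high, and without such genes the counts were 5 higher and 4 lower of 46, beside 15.5% of all genes left. Besides Il2ra, Maml3 (−0.69), Maml2 (−0.43) and the presenilin Psen2 (−0.43) were lower. The median of the 48 genes was 0.01, beside 0.04 over all genes.

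Between the mutants, 2 of the 48 genes passed with limma (4.17%, beside 5.37% of all genes), Igf1r higher in the ZnF4 mutant by 1.07 (SE 0.18, limma adjusted p = 0.037) and Il2ra lower. The Igf1r call ended without any single library (0.95 to 1.19, limma adjusted p = 0.0671 to 0.226), without the granulocyte-rich pair (0.362), with no filter on low values (0.0548), with a filter at 5 RPKM (0.0504) and in the fit of 4 libraries (0.0667). The blocked fit called 5 higher and 13 lower (37.5%, beside 35.1%). Of these, Cr2 and Aph1b passed the filter only through the mutant in which they are high, and without such genes the counts were 4 higher and 12 lower of 46, beside 33.8% of all genes left. Among the 7 remaining genes of receptor cutting, 4 were lower in the ZnF4 mutant with the block and 0 higher. They were Psen2 (−0.74), Ncstn (−0.32), Adam17 (−0.30) and Adam10 (−0.28). Of all 11345 genes tested, 19.2% were lower. That share still includes the 289 genes that passed the filter through 1 group only, so it is not over the same set. Without the block, 0 of the 7 genes of receptor cutting were called. The blocked share called in either direction, Aph1b and Cr2 included, was 62.5% for receptor cutting and 71.4% for other responsive genes. It was 33.3% for turnover and trafficking, 25% for nuclear cofactors and 0% for glycosylation. Aph1b was at 0.6 and 0.8 RPKM in wt, 1 and 1 in the ZnF1 mutant and 0.2 and 0.4 in the ZnF4 mutant, and has a near-identical neighbour, Aph1c, so its level is uncertain. Also lower with the block were Dtx4 (−0.82), Maml2 (−0.74), Ctbp2 (−0.66), Tcf7 (−0.52), Dtx3l (−0.40), Numb (−0.36) and Maml3 (−0.29), and higher were Myc (0.64), Mib1 (0.53) and Hdac2 (0.36). Macrophage and stromal transcripts were higher in the ZnF1 mutant than in the ZnF4 mutant, and their part in these differences was not tested. The median of the 48 genes was −0.04, beside 0.04 over all genes.

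**Figure D4:**
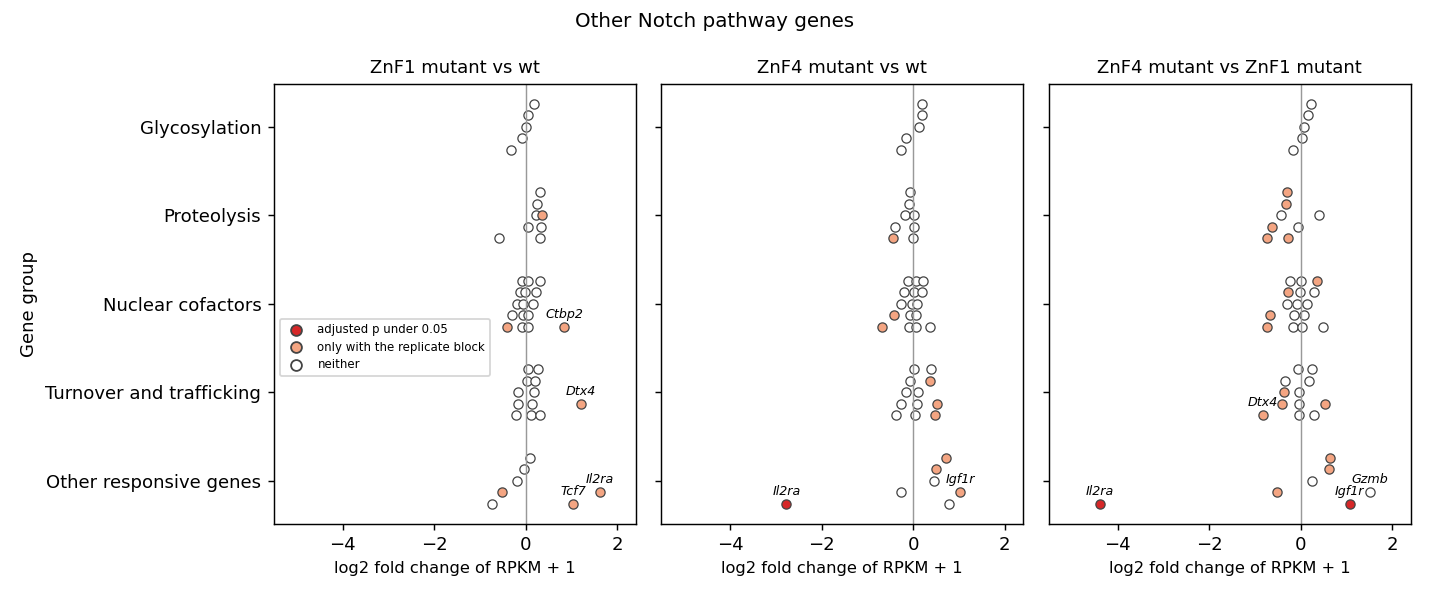
log2 fold changes of RPKM + 1 for the 48 tested genes of the Notch pathway list in the 3 comparisons, by gene group (vertical offsets within a group only separate points). Red points passed with limma, orange points only with the replicate block, and genes at 0.8 or beyond are named; Il2ra lies at −4.39 between the mutants.

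Genes that Notch signalling switches on in T cell progenitors gave mixed values. Il2ra, the interleukin 2 receptor alpha chain, was listed at 7.1 and 8 RPKM in wt, 26.6 and 24 in the ZnF1 mutant and 0.3 and 0.2 in the ZnF4 mutant. It fell by 2.77 in the ZnF4 mutant against wt (SE 0.16, limma adjusted p = 0.0065), and in the ZnF1 mutant it differed from wt by 1.62 (limma adjusted p = 0.092, or 0.0052 with the block). The first call ended without wt replicate 2 (limma adjusted p = 0.0574), without either ZnF4 mutant replicate (0.0701 and 0.0826) and without the granulocyte-rich pair (0.261), at −2.85 to −2.70. Between the mutants Il2ra differed by −4.39 (limma adjusted p = 0.0031), and this call ended without ZnF1 mutant replicate 1 (0.0699), ZnF4 mutant replicate 1 (0.0572) or that pair (0.199). Tcf7, a transcription factor of early T cells, stood at 2.2 and 1.5 RPKM in wt, 5.5 and 4.1 in the ZnF1 mutant and 3.9 and 2.3 in the ZnF4 mutant. Ptcra, the pre-T cell receptor alpha chain, was listed at 0 in every library and Gata3 at most at 0.1 RPKM. Hes5, a relative of Hes1, stood at 1 to 4.3 RPKM, higher in replicate 1 in every group.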

How the data were processed

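Expression was measured in 6 libraries, 2 per group. The deposited values are RPKM per RefSeq transcript, per the file headers, written by the authors to 1 decimal. Transcript lengths stand beside them and were not used in any test. TopHat, bedtools and the mm9 build are named, without versions, per the submitters' processing notes. Use of strand and the counting of shared reads are not given in the sources used here, so levels of genes with an annotated overlapping gene (Notch1, Notch2, Notch3, Rbpj, Nrarp) are uncertain to that extent. Depth is unknown, so no counting interval is given.

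Of 26532 rows, 1 named no gene and was left out. Of the other 26531, 40 held symbols turned into numbers, of which 39 were restored by accession, and all were summed per symbol to 22099 genes. limma 3.58.1 (R 4.3.3) with an intensity trend was fitted to log2(RPKM + 1), with 3 group means in 1 fit (3 residual and 2.32 prior degrees of freedom). The code was run on simulated data for ZnF4 mutant against wt. The simulated libraries varied independently, so that run does not cover the likeness of same-numbered libraries. P-values set a difference against the spread between libraries within groups, pooled over the groups in the fit and moderated across genes. With the replicate block, that spread is what remains after the replicate difference is removed. Deviations of same-numbered libraries correlated across genes at 0.5 (wt and ZnF1 mutant), 0.754 (wt and ZnF4 mutant) and 0.715 (both mutants); numbers come from the sample titles. Alternatives were the replicate block, other pseudocounts, filters and scalings, the highest row per symbol, 4-library fits and leaving out libraries. All 9 genes are named, with pathway genes past the threshold in either fit, the ligands, Il2ra, Ptcra, Tcf7 and Gata3. A few genes of the lists and of the most similar profiles are not reported here and stay out of the list counts. Genes and lists were chosen with earlier results of these data known.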

Additional observations from a re-analysis of the deposited data

Results flagged for a closer look

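Some genes lay above both wt libraries in both ZnF1 mutant libraries and below both wt libraries in both ZnF4 mutant libraries. They were picked for this pattern, so the differences between the mutants are given as descriptions, and the pattern was not tested in other libraries. Of all genes tested, 18.3% had both ZnF1 mutant libraries above both wt libraries. Both ZnF4 mutant libraries were below both wt libraries for 13.8%. The share of all genes with the whole pattern was not counted. Il2ra differed by −4.39 (log2, ZnF4 mutant minus ZnF1 mutant), Maml2 by −0.74 and Aph1b by −0.63. Aph1b passed the filter on low values only through the ZnF1 mutant libraries. Its neighbour Aph1c was below the filter and was not searched, and showed the same order. The genes are near-identical and the counting of shared reads is not given, so Aph1c is not a separate case. Aph1c stood at 0.2 and 0.2 RPKM in wt, 0.8 and 0.9 in the ZnF1 mutant and 0.1 and 0.1 in the ZnF4 mutant. Notch3 was below the filter, with a mean 0.35 RPKM lower in the ZnF4 mutant (a difference of −0.35 RPKM), and this difference was not tested.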

How the results depend on the processing

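The fold changes of the 6 tested genes, of Il2ra and of Igf1r in the ZnF4 mutant were recomputed under the other pseudocounts, filters, scalings and sets of libraries. Leaving out libraries lowers the residual degrees of freedom, and a fit that leaves a group with 1 library assumes that it varies like the others. The fit without wt replicate 1 and ZnF1 mutant replicate 2 was chosen after seeing the data. The cause of the changes below was not tested.

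With the replicate block, the counts of genes called rose from 0 to 1502 in ZnF1 mutant against wt, from 309 to 1809 in ZnF4 mutant against wt and from 609 to 3979 in ZnF4 against ZnF1 mutant. The block moved the count of the 6 Notch genes from 0 to 1 and from 1 to 3 in the first and the last of these (2 to 3 in ZnF4 mutant against wt), and the count of the 48 other pathway genes from 0 to 7, 1 to 10 and 2 to 18. It changed the call of Notch2 in the ZnF1 mutant, of Notch1 in both comparisons of the ZnF4 mutant and of Nrarp between the mutants, and of no other member.

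For ZnF4 mutant against wt, 176 of 8642 genes tested were called with a filter at 5 RPKM and 131 genes in the fit of 4 libraries. Without the pair rich in granulocyte transcripts it was 0 of 10981. For ZnF4 against ZnF1 mutant the counts were 323, 324 and 0. Median centring gave 1 gene in ZnF1 mutant against wt. The filter at 5 RPKM tested 4 of the 9 Notch genes, no filter tested all 9, and the other settings named here tested 6. Of the Notch genes tested in ZnF4 mutant against wt, 1 was called with the filter at 5 RPKM, the 4 libraries, median centring or quantile normalization. With no filter or without that pair, 0 were called. Between the mutants 0 of those tested were called with no filter, with the filter at 5 RPKM or without the pair. For the scalings and for no filter, the share of all genes called in these comparisons is not given here. The counts of Notch genes are therefore not read against it. Of the other pathway genes, 1 was called between the mutants with the filter at 5 RPKM or the 4 libraries, and 0 without the pair in both comparisons of the ZnF4 mutant.

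Leaving out single libraries gave 0 to 119 genes called in ZnF4 mutant against wt and 0 to 306 in ZnF4 against ZnF1 mutant. In each of these it gave 0 to 1 of the 6 Notch genes and 0 to 1 of the other pathway genes.

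Small values changed sign. In ZnF1 mutant against wt, Hes1 was −0.0121 with median centring and −0.0335 with quantile normalization, and Nrarp −0.117 with quantile normalization. Without the granulocyte-rich pair, Heyl was 0.138 and Notch1 0.388 in that comparison, and Hes1 0.197 and Rbpj −0.00407 in ZnF4 mutant against wt. Leaving out single libraries in ZnF1 mutant against wt gave −0.263 to 0.294 for Hes1, −0.474 to 0.18 for Notch1 and −0.208 to 0.272 for Nrarp. In ZnF4 mutant against wt it gave −0.36 to 0.197 for Hes1, −0.63 to 0.00393 for Nrarp and −0.00407 to 0.273 for Rbpj, and between the mutants −0.278 to 0.0828 for Hes1. Notch2 and Heyl kept their direction in both comparisons against wt under every alternative run, except Heyl in the ZnF1 mutant as given above.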
